A study of Homo sapiens with 4 samples.

Results

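GAS5 and 9 small nucleolar RNA host genes named SNHG were followed in NALM6, an established cell line from a human acute lymphoblastic leukemia of B cell precursors. The 10 genes, GAS5, SNHG1, SNHG3, SNHG5, SNHG6, SNHG7, SNHG8, SNHG12, SNHG15 and SNHG16, were taken by name from a table of 20665 genes, and all 10 were among the 13626 genes counted well enough to be tested. Total RNA was sequenced in 4 libraries. The 2 vehicle libraries came from cells given DMSO, a solvent, over 45 min. The 2 AICAR libraries came from cells kept in glucose-free medium over 24 h, with AICAR at 15 mM added for the last step of 45 min. Cells phosphorylate the nucleoside AICAR into an analog of AMP, which switches on the energy sensor AMPK. Whether the vehicle cells also went without glucose is not given, so AICAR and glucose deprivation cannot be told apart. NALM6 is a single line, and nothing says that replicates came from separate cultures, so p-values measure only the spread between these libraries, which may be technical.

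A snoRNA host gene carries its product in its introns. Splicing of the host transcript releases an intron, a debranching enzyme opens it, and trimming leaves a small nucleolar RNA (snoRNA) that guides chemical modification or cleavage of ribosomal RNA. The spliced exons of GAS5 and many SNHG genes encode no protein, and translation of their short reading frames exposes them to nonsense-mediated decay, which keeps them short-lived. Many begin with a 5′ terminal oligopyrimidine tract, a C followed by pyrimidines, as ribosomal protein mRNAs do. GAS5 RNA was found through its accumulation in growth-arrested cells and is known to bind the glucocorticoid receptor, the target of the steroids used against this leukemia.

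The start sites are shown because this tract is the sequence feature that the family is known for. Windows at the RefSeq (GRCh38.p14) start are shown and counted for 8 of the members. SNHG6 was left out of this step, and SNHG15 had no start in the promoter set used. Each window runs from 20 bases before the start to 30 bases from it on, 5′ to 3′. Every C followed by at least 4 pyrimidines is in capitals.
GAS5, chr1:173869016-173869065, minus strand: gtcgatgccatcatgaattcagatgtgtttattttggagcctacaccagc
SNHG1, chr11:62855856-62855905, minus strand: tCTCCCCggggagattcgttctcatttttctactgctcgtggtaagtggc
SNHG3, chr1:28505923-28505972, plus strand: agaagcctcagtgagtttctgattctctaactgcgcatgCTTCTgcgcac
SNHG5, chr6:85678704-85678753, minus strand: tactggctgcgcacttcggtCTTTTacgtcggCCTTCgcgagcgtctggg
SNHG7, chr9:136728155-136728204, minus strand: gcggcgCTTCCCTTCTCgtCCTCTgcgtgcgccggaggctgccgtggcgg
SNHG8, chr4:118278742-118278791, plus strand: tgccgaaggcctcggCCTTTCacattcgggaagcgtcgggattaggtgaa
SNHG12, chr1:28581844-28581893, minus strand: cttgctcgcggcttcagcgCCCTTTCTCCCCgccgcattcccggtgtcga
SNHG16, chr17:76557744-76557793, plus strand: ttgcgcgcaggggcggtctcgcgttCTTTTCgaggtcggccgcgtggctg

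Of these 8 windows 7 held such a tract, as did 53.1% of the 35116 RefSeq start windows of the same length, read on the gene's strand. In SNHG5 a tract begins at the annotated start itself, and in SNHG12 and SNHG7 a tract begins just ahead of the start. The GAS5 window held none. Start sites vary between annotations, and in GENCODE 29 (GRCh38) 6 of 29 GAS5 transcripts and 2 of 8 SNHG16 transcripts begin with a tract. The first 30 bases of 1 such transcript of each gene, which open with the same tract, are given with it in capitals.
GAS5 transcript: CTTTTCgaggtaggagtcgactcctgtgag
SNHG16 transcript: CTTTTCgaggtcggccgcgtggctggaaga

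In GENCODE 29, 21 of the 129 transcripts of the 10 members (16.3%) begin with such a tract at their first base, against 2.41% of all 206694 transcripts. Transcripts of 1 gene share their starts, so they are not independent. Tracts were present in genes that fell and in genes that did not, so the windows do not separate the members by their response.

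Depth was 32318374 to 36769099 counts per library, and the members together took 0.192% to 0.217% of them. All 10 markers fixed for B cell precursors were tested, with mean levels from 77.4 CPM (counts scaled to a common library size after TMM normalization) for CD79A with vehicle to 1190 CPM for IGLL1 with AICAR. Of the markers of T, myeloid and erythroid cells found in the table, TRAC reached 4.24 CPM, LYZ 2.06 CPM and the others at most 0.688 CPM in any library.

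With AICAR 5 of the 10 host genes were lower, SNHG1, SNHG15, SNHG12, SNHG7 and GAS5, and 5 did not pass the test (adjusted p under 0.05 over all genes by the quasi-likelihood test of edgeR). By the same test 39.1% of all tested genes changed, 19.7% lower and 19.4% higher. Among the 1225 tested genes of long noncoding types, 136 (11.1%) were lower and 36 (2.94%) higher. These shares were not matched for count level. In a fit limited to genes averaging at least 10 CPM, 2305 of 8231 genes were lower and 2085 higher. All 10 members were in that fit, with 5 lower and 0 higher. The members' median log2 fold change was -0.08, against -0.0022 for all tested genes and -0.13 for long noncoding genes. The falls reached 1.66-fold, and the 5 genes that did not pass had log2 fold changes between 0.01 and 0.14. CPM values of the groups did not overlap for 7 members, as for 69.2% of all tested genes. In the authors' deposited table the same 5 members have a q-value under 0.05, with log2 fold changes from -0.71 for SNHG1 to -0.15 for GAS5.

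**Figure D1:**
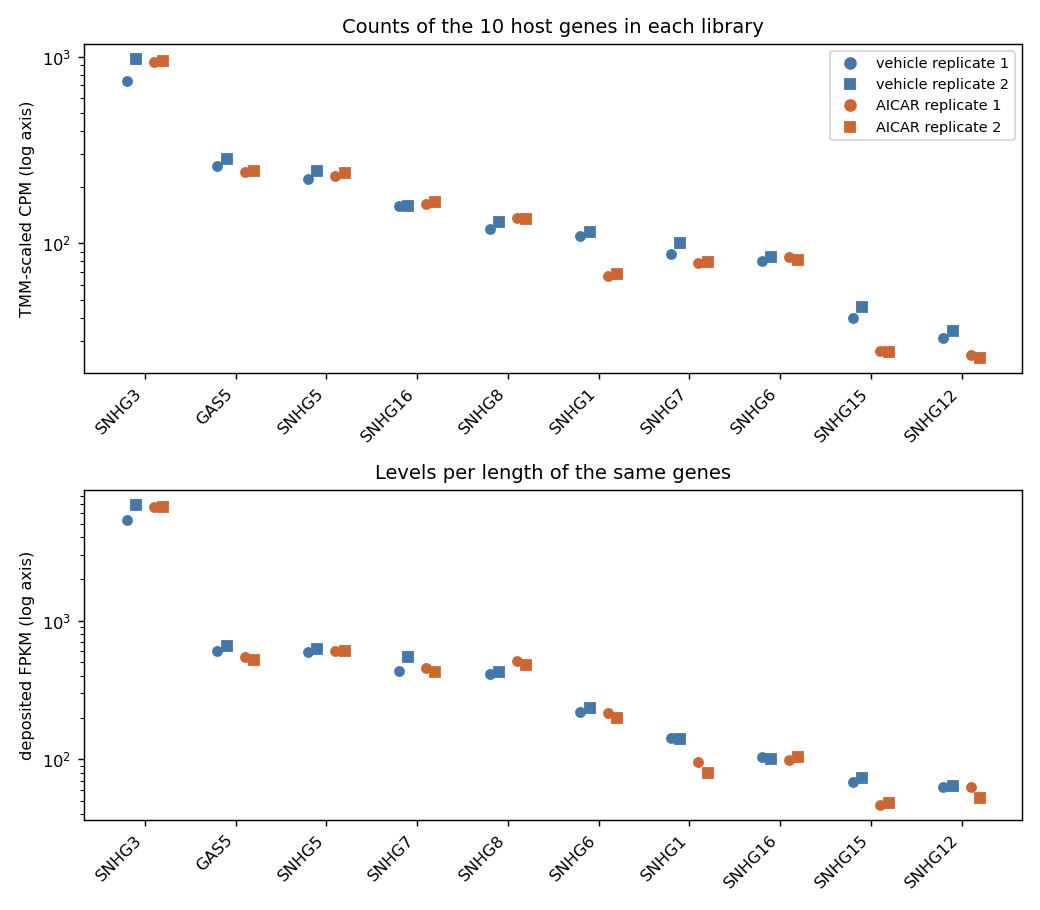
Values of each host gene in each library, as TMM-scaled CPM (top, log axis) and as deposited FPKM (bottom, log axis), ordered by the vehicle mean; circles are replicate 1 and squares replicate 2. SNHG1 lay at 110 and 115 CPM with vehicle and at 67.1 and 68.4 CPM with AICAR, and in FPKM SNHG3 stood above every other member. The FPKM of SNHG3 rests on a short implied effective length, 139 to 144 bases.

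SNHG1 fell most. Its introns hold box C/D snoRNAs, which guide methylation of ribosomal RNA, SNORD22 and SNORD25 to SNORD28 among them. It had 110 and 115 CPM with vehicle and 67.1 and 68.4 CPM with AICAR. Both AICAR libraries lay far below both vehicle libraries, and the replicates of a group were close. The log2 fold change was -0.73 ± 0.042 (SE; edgeR adjusted p = 2.74e-07), with a 95% interval from -0.82 to -0.64. Leaving out each library in turn gave values from -0.77 to -0.71.

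SNHG15, the host of the H/ACA snoRNA SNORA9, fell by nearly as much. Its values were 40 and 45.5 CPM with vehicle and 26.5 and 26.3 CPM with AICAR, again without overlap. The log2 fold change was -0.70 ± 0.066 (SE; edgeR adjusted p = 1.23e-05). Its 95% interval, -0.84 to -0.55, overlaps that of SNHG1.

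SNHG12 carries SNORA16A, SNORA44, SNORA61 and SNORD99 in its introns. It had 31.2 and 34.1 CPM with vehicle and 25.3 and 24.2 CPM with AICAR, without overlap. This fall was 1.32-fold, or -0.40 ± 0.062 in log2 (SE; edgeR adjusted p = 0.000455).

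SNHG7, the host of SNORA17A and SNORA17B, fell from 87.9 and 99.8 CPM to 78 and 79.4 CPM. The vehicle libraries stood further apart than the AICAR libraries did, but the groups did not overlap. The log2 fold change was -0.25 ± 0.055 (SE; edgeR adjusted p = 0.00354), and -0.34 to -0.17 when each library was left out. With no low-count filter it was not called (adjusted p = 0.0553).

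GAS5 showed the smallest of the 5 falls. It had 258 and 284 CPM with vehicle and 240 and 244 CPM with AICAR. The groups did not overlap, and the log2 difference was -0.16 ± 0.047 (SE; edgeR adjusted p = 0.0179). The call was lost without AICAR replicate 1 (-0.15, adjusted p = 0.0562) and with no low-count filter (adjusted p = 0.112). Without vehicle replicate 2 the value was -0.10, and without vehicle replicate 1 it was -0.23. The 95% interval of GAS5, -0.27 to -0.06, does not overlap those of SNHG1 and SNHG15, though the difference between genes was not tested.

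**Figure D2:**
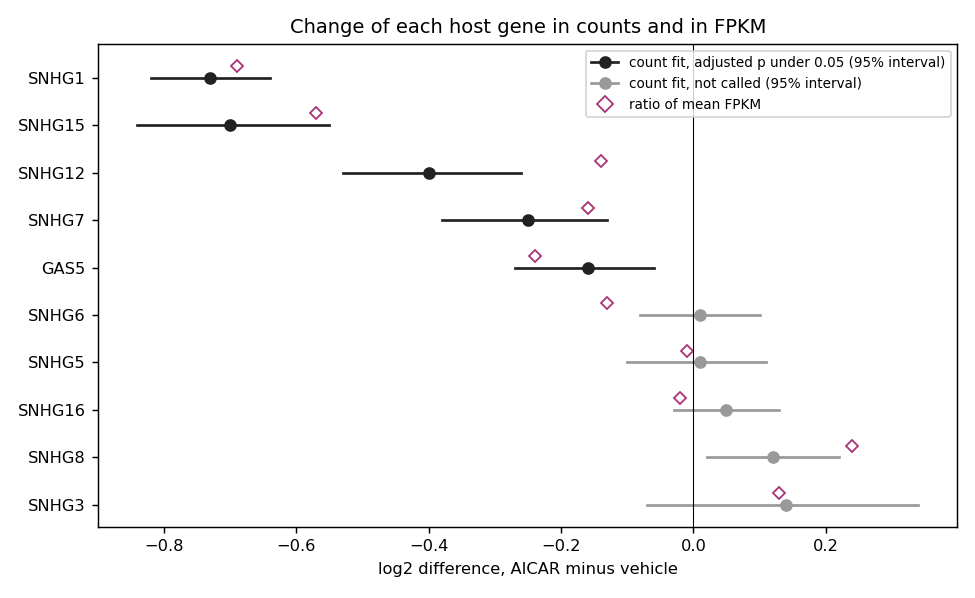
Log2 difference between AICAR and vehicle for each host gene, from the count fit with its 95% interval (circles; dark where adjusted p is under 0.05) and as the ratio of mean deposited FPKM (open diamonds). SNHG1 and SNHG15 stand apart at -0.73 and -0.70, while the diamond of SNHG12 lies nearer to 0 than its circle, at -0.14 against -0.40.

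The remaining 5 members did not pass. SNHG8, the host of SNORA24, had 120 and 130 CPM with vehicle and 137 and 135 CPM with AICAR. Its groups did not overlap, but the log2 difference of 0.12 ± 0.045 (SE) missed the threshold (edgeR adjusted p = 0.0521; 95% interval 0.02 to 0.22). It was called higher with RLE scaling (adjusted p = 0.0476), upper quartile scaling (0.0399), limma-voom (0.0463) and TMM scaling without small RNA genes (0.0479). Without vehicle replicate 2 it was also called, at 0.17 (adjusted p = 0.00187). Scaled by library totals (adjusted p = 0.354) and with DESeq2 (0.0986) it was not called, so its call changed with the scaling, the test and the libraries used.

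SNHG5 hosts SNORD50B. It had 220 and 244 CPM with vehicle against 230 and 237 CPM with AICAR, so that the vehicle values enclosed the AICAR values. Its log2 fold change was 0.01 with a 95% interval from -0.10 to 0.11. SNHG6, the host of SNORD87, had 80.6 and 84.3 CPM with vehicle and 84.7 and 81.5 CPM with AICAR (0.01, interval -0.08 to 0.10). SNHG16, which carries SNORD1A, SNORD1B and SNORD1C, had 159 CPM in both vehicle libraries and 163 and 166 CPM with AICAR (0.05, interval -0.03 to 0.13). For these genes the intervals contain neither a fall nor a rise as large as that of SNHG12.

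SNHG3 hosts SNORA73A and SNORA73B, H/ACA snoRNAs needed for cleavage of the ribosomal RNA precursor. It took 40% to 47% of all counts of the members in a library. Its CPM values were 737 and 971 with vehicle and 934 and 943 with AICAR, so the AICAR values lay between the vehicle values. The log2 fold change was 0.14 ± 0.092 (SE; edgeR adjusted p = 0.277; 95% interval -0.07 to 0.34). Without vehicle replicate 2 it was 0.34 and called (adjusted p = 4.46e-11), and without vehicle replicate 1 it was -0.05 and not called, so a single vehicle library sets its direction.

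The transcript length behind the SNHG3 values was short. Dividing a gene's count by its FPKM and by the library's total count gives, after unit scaling, the effective length behind the FPKM, in bases. For 26 small RNA genes with 1 annotated transcript, the median ratio of this length to the annotated length less the read length plus 1 was 0.997 in each library. For SNHG3 the implied effective length was 144 and 142 bases with vehicle and 139 in both AICAR libraries. SNORA73A, with 206 bases, has an effective length of 132 bases by the same rule, and the SNHG3 transcripts of GENCODE 29 have from 185 to 2614 bases. One of the 3 holds the whole of SNORA73A. The table gives SNORA73B a row of its own, with an implied length of 130 bases in every library. No row was found there for SNORA73A. How much of the SNHG3 count came from SNORA73A reads was not tested.

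The 2 snoRNAs of SNHG3 are shown because their likeness bears on how its reads were shared out. They are 93.2% identical (192 of 206 aligned positions), and capitals mark the bases that differ or have no partner. Both lie on the plus strand of chromosome 1, and the sequences are from GENCODE 29 (GRCh38).
SNORA73A: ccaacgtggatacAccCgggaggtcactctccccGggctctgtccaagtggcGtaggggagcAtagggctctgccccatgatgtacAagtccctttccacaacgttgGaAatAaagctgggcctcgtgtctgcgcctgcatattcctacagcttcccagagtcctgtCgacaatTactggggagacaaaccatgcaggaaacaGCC
SNORA73B: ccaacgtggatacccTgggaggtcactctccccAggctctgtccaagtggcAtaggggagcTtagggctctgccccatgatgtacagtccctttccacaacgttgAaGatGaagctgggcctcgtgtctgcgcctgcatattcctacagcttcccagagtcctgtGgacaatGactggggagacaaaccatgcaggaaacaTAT

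The longest run that the copies share is 54 bases, shorter than the 75 bases of a read, but trimmed reads and mismatches can still be assigned to either, so both counts are uncertain. SNORA73B had 503 and 626 CPM with vehicle and 587 and 599 CPM with AICAR (log2 fold change 0.07, edgeR adjusted p = 0.514). The ratio of the SNHG3 count to that of SNORA73B was 1.46 and 1.55 with vehicle and 1.59 and 1.57 with AICAR. As in SNHG3, vehicle replicate 2 was the highest library and vehicle replicate 1 the lowest. RCC1, a protein-coding gene that overlaps SNHG3 on the same strand, averaged 170 ± 3.85 CPM in the vehicle and 181 ± 2.02 CPM in the AICAR group (SD, n = 2; edgeR adjusted p = 0.0929).

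The other snoRNAs of the members could not be followed. In the table SNORA9 had 3 and 5 counts with vehicle and 0 in both AICAR libraries, where 0 allows up to 3 counts by counting error alone. SNORA24 had 9.03 and 8.01 counts with vehicle and 6 and 3 with AICAR, and SNORA43 and SNORD99 had at most 2 in any library. None of these was tested.

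Before rounding, all 10 members had a higher CPM in vehicle replicate 2 than in vehicle replicate 1. For SNHG16 the difference was slight, and both values round to 159. Of all tested genes 49.7% were higher in replicate 2, by any amount. The 9 members other than SNHG3 summed to 1106 and 1196 CPM with vehicle and 1053 and 1061 CPM with AICAR. Both AICAR sums lay below the lower vehicle sum. SNHG1, SNHG7, SNHG12 and SNHG15 were called lower whichever library was left out.

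Per length, in deposited FPKM with vehicle, the order of the members was SNHG3, GAS5, SNHG5, SNHG7, SNHG8, SNHG6, SNHG1, SNHG16, SNHG15 and SNHG12. SNHG3 had 5312 and 6827 FPKM, with the short length given above. The place of SNHG7 also rests on a short implied length, given below. GAS5 had 608 and 654 FPKM and SNHG5 had 595 and 626 FPKM, and these neighbours overlap. No other neighbours in the order did. SNHG12, the lowest, with 63.2 and 64 FPKM, still lay above 89.4% of tested genes. With AICAR SNHG1 dropped from 142 and 141 FPKM to 96.1 and 79.8 FPKM, both below SNHG16, which had 99.1 and 103 FPKM there.

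Counts and FPKM did not move alike in every member. SNHG12 had 63.2 and 64 FPKM with vehicle and 62.7 and 52.7 FPKM with AICAR, and limma on log2(FPKM + 0.1) did not call it (difference -0.15, adjusted p = 0.296). SNHG7 was not called on this scale either (-0.16, adjusted p = 0.36). SNHG8 rose from 410 and 429 FPKM to 511 and 481 FPKM (0.24 on the log2(FPKM + 0.1) scale, limma adjusted p = 0.0228). SNHG1 (-0.69, adjusted p = 0.00722), SNHG15 (-0.57, 0.00311) and GAS5 (-0.24, 0.0236) were lower on both scales.

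FPKM differs from TMM-scaled CPM both in its scaling to library totals and in the effective length it divides by. Scaled by library totals, the count fit gave -0.22 for GAS5, near its FPKM difference of -0.24, while its implied length changed by 0.02 on the log2 scale. Other members differed more in implied length. For SNHG12 the implied length was 513 and 533 bases with vehicle and 399 and 446 bases with AICAR, a drop by 19.2%. For SNHG8 it was 303 and 304 bases against 265 and 272 bases, and for SNHG15 606 and 622 against 556 and 524 bases. SNHG7 had 209 and 182 bases with vehicle and 169 and 182 with AICAR. SNHG1 had 802 and 818 bases with vehicle but 690 and 831 with AICAR, so its AICAR libraries disagreed. SNHG6 went the other way, from 381 and 362 to 389 and 397 bases.

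Groups did not overlap in implied length for 6 of the 10 members, and for 44.9% of 6811 genes with a mean of at least 500 counts and at least 5 FPKM. Among those genes the central 95% of changes lay between -0.22 and 0.15 on the log2 scale. SNHG12, at -0.31, lay beyond that range, and SNHG15, at -0.19, SNHG8, at -0.18, and SNHG7, at -0.16, lay within it. GENCODE 29 lists 17 transcripts of SNHG12, 10 of them retained introns and 7 holding a whole snoRNA. The deposited table does not give the transcripts apart, so which of them moved is not analysed here, and the change in length was not tested.

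**Figure D3:**
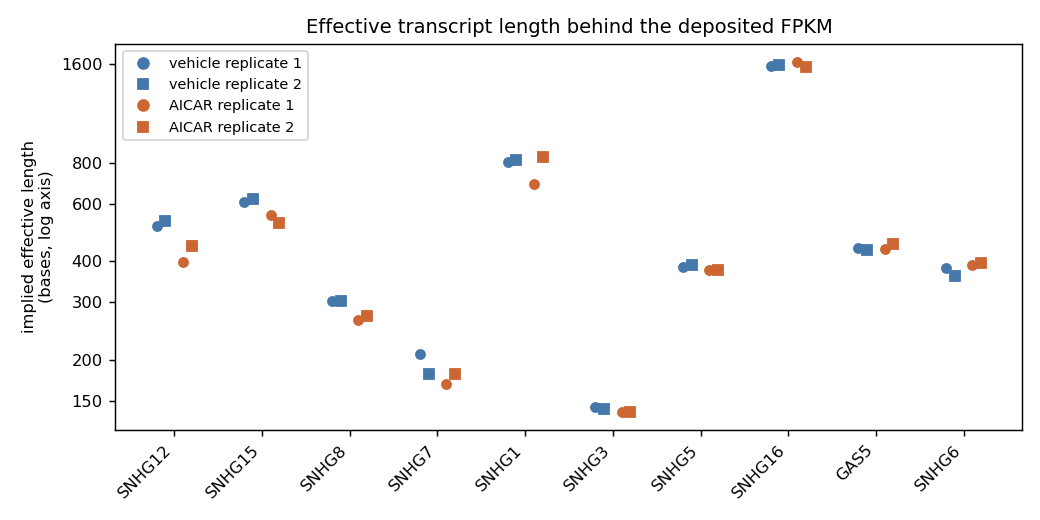
Implied effective length of each host gene in each library (bases, log axis), computed from the deposited counts and FPKM and ordered by the change with AICAR; circles are replicate 1 and squares replicate 2. SNHG12 shortened most, from 513 and 533 to 399 and 446 bases, and SNHG3 stayed at 139 to 144 bases throughout.

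Of the tested genes beside the 5 members that fell, ZBTB37, beside GAS5, was the one called lower. SLC3A2, an amino acid transporter subunit next to SNHG1 on the opposite strand, averaged 229 ± 0.804 CPM in the vehicle and 238 ± 5.38 CPM in the AICAR group (SD, n = 2; edgeR adjusted p = 0.241). WDR74, a ribosome biogenesis factor on the other side of SNHG1, rose by 0.32 on the log2 scale (edgeR adjusted p = 0.000141). The neighbours of SNHG15 had log2 fold changes of 0.24 for MYO1G, a myosin, which was called higher (edgeR adjusted p = 0.0284), and 0.13 for CCM2, which was not (0.224). Next to SNHG12, TAF12, a transcription factor subunit, rose by 0.21 (edgeR adjusted p = 0.00869), and TRNAU1AP, at 0.11, did not pass (0.133). FAM69B, which overlaps SNHG7 on the opposite strand, rose by 0.17 (edgeR adjusted p = 0.00995). ZBTB37, a zinc finger gene that overlaps GAS5 on the opposite strand, fell by 0.31 (edgeR adjusted p = 0.0108). Beside SNHG3, which was not called, PHACTR4 fell by 0.39 (edgeR adjusted p = 0.0147). Whether the authors' counting used strand is not given, so overlapping antisense pairs are uncertain.

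Of 8 other noncoding hosts of snoRNAs tested, DANCR rose, EPB41L4A-AS1 fell and 6 did not pass, where 19.4% of all tested genes were higher and 19.7% lower. Their median log2 fold change was 0.03. DANCR went from 114 and 119 CPM to 133 CPM in both AICAR libraries (0.20 ± 0.039, SE; edgeR adjusted p = 0.0019). EPB41L4A-AS1 went from 23.7 and 27 to 20.4 and 19.8 CPM (-0.34 ± 0.072, SE; edgeR adjusted p = 0.0031). ZFAS1, another host of box C/D snoRNAs, had 106 and 114 CPM with vehicle and 117 and 113 CPM with AICAR. Without vehicle replicate 2 the median of these 8 genes was 0.17, against -0.01 for all genes in that fit. Limma on log2(FPKM + 0.1) called 0 of the 8 in either direction, and 591 of all 13626 genes higher and 1285 lower.

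Of 39 protein-coding hosts tested, 26 were higher and 7 lower, with a median of 0.18. Among all 11444 tested protein-coding genes 21.7% were higher and 21.4% lower, with a median of 0.01. Many of the hosts are ribosomal protein genes, each of which was called higher, and none of the 7 lower genes is one. Whether hosts outside that group differ from other protein-coding genes was not tested. The largest rises were those of NCL, the nucleolar protein nucleolin, EEF2, the translation elongation factor, and RPL23A, a ribosomal protein. NCL had 640 and 604 CPM with vehicle and 793 and 771 CPM with AICAR (log2 fold change 0.33, edgeR adjusted p = 0.00011). EEF2 and RPL23A rose by 0.33 and 0.30. The largest falls were those of EIF4A2, a translation initiation helicase (-0.57, edgeR adjusted p = 1.44e-06), TAF1D, a factor of RNA polymerase I (-0.46), and PPAN, a ribosome biogenesis factor (-0.33). EIF4A2 went from 313 and 330 CPM to 219 and 214 CPM, a fall between those of SNHG12 and SNHG15. Limma on log2(FPKM + 0.1) called 16 of the 39 higher and 4 lower, and 591 of all 13626 genes higher and 1285 lower.

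**Figure D4:**
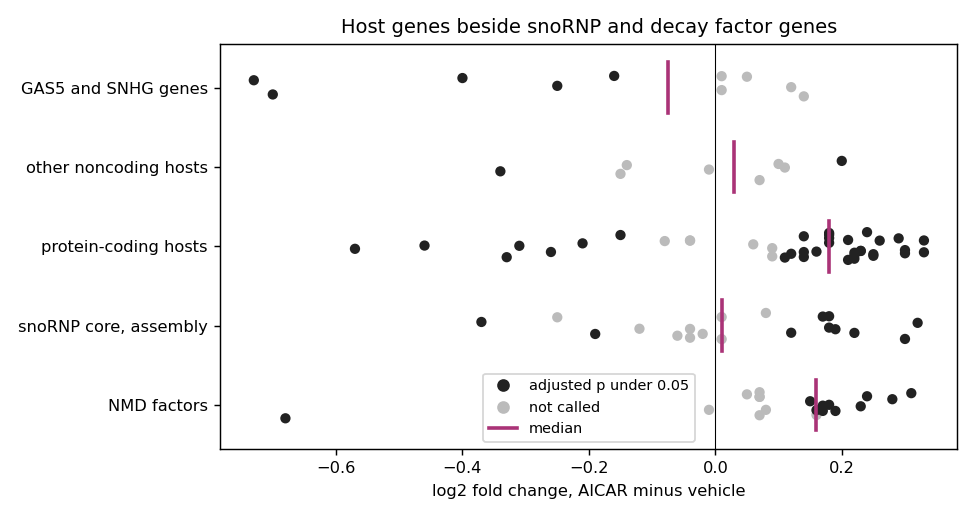
Log2 fold changes (AICAR minus vehicle, edgeR) of the tested genes in 5 lists; dark points passed at adjusted p under 0.05, and bars mark the median. The GAS5 and SNHG genes have a median of -0.08 and no member called higher, and the protein-coding hosts a median of 0.18 with 26 called higher and 7 lower. Many of those called higher are ribosomal protein genes.

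The proteins that bind snoRNAs and assemble their particles were tested as 19 genes, of which 8 rose and 2 fell (median 0.01), beside the 21.7% higher and 21.4% lower among protein-coding genes. FBL, the box C/D methyltransferase fibrillarin, rose from 201 and 200 to 248 and 252 CPM (log2 fold change 0.32, edgeR adjusted p = 5.8e-05). RUVBL2, an assembly ATPase, and NHP2, a core H/ACA protein, rose by 0.30 and 0.22. DBR1, the enzyme that opens intron lariats, fell from 36.6 and 35.5 to 28 CPM in both AICAR libraries (-0.37, edgeR adjusted p = 0.00025). NUFIP1, an assembly factor, fell by 0.19. Scaled by library totals, 3 were higher and 2 lower with a median of -0.05. Of all 13626 genes 1390 were then higher and 3135 lower, with a median of -0.06. Limma on log2(FPKM + 0.1) called 3 higher and 1 lower, and 591 of all 13626 genes higher and 1285 lower.

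Nonsense-mediated decay genes, whose products act on spliced GAS5 and SNHG1 RNA, rose in 11 of 20 tested members, with 1 lower and a median of 0.16, beside the same 21.7% and 21.4%. UPF1, the central helicase, went from 109 and 97.4 to 129 and 128 CPM (log2 fold change 0.31, edgeR adjusted p = 0.000603). SMG5 and UPF2, its partners in the pathway, rose by 0.28 and 0.24. SMG8, a regulator of the kinase that phosphorylates UPF1, was the member that fell, from 45.1 and 44.8 to 27.2 and 29 CPM (-0.68, edgeR adjusted p = 2.9e-06). Scaled by library totals, 4 of them were higher, as were 1390 of all 13626 genes. DESeq2 called 7 higher, and 1823 of 13626 genes. Without vehicle replicate 2 there were 7, and 2392 of 13972 genes. Limma on log2(FPKM + 0.1) called 1 higher, and 591 of 13626 genes. All of these values are relative to the other RNAs of a library.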

How the data were processed

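The 4 libraries were made, per the labels' protocols, with a stranded total RNA kit and sequenced as single reads of 75 bases. Per the submitters' processing notes, the build was hg19 and the tools were RSEM 1.2.31, STAR 2.5.3a, Trimmomatic 0.32 and DESeq2. Neither the annotation nor the strand setting of the counting is given in the sources used here. Expected counts per gene were deposited without normalization, beside FPKM values that the authors had scaled by transcript length and depth. The authors' deposited table also holds log2 fold changes with a q-value per gene, quoted as theirs.

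Expected counts were rounded to whole numbers, passed through filterByExpr (at least 10 counts, total of at least 15) and TMM scaling, and tested two-sided by quasi-likelihood in edgeR 4.0.16 under R 4.3.3. Benjamini-Hochberg adjustment ran over all 13626 genes tested, with a threshold of 0.05. The SE of a log2 fold change is its size over the square root of its F value, and 95% intervals use the t quantile of the fit. FPKM was tested with limma 3.58.1 on log2(FPKM + 0.1). The procedure was tested on simulated counts. The implied effective length was added after the data were seen and is descriptive. The members and gene lists were chosen with earlier results of these data known. The genes named are the members, their nearest annotated neighbours, and in each list up to 3 genes at either end among those that passed the test and averaged 5 CPM or more. ZFAS1 and the SNORA and SNORD genes were named apart from that rule, as were the cell type markers. Of 18 other noncoding hosts listed, 8 were in the table. Replicates differed by more than sampling noise (chi-square per gene 8.35 for vehicle and 2.91 for AICAR). Transcripts and neighbours are from GENCODE 29 (GRCh38) and start windows from RefSeq, neither on the authors' build. Figures used matplotlib 3.10.9 in Python 3.11.15.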

Additional observations from a re-analysis of the deposited data

How the results depend on the processing

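In all, 16 alternatives were tried. SNHG1 and SNHG15 were called lower in each of them, with log2 values from -0.79 to -0.56. The count of members called higher went from 0 to 1 (SNHG8) with RLE or upper quartile scaling, TMM without small RNA genes, limma-voom, limma on FPKM with either pseudocount, and the replicate block, and ranged from 0 to 2 with a library left out. The members called lower then numbered 4 to 5, the members changed 4 to 7 and the genes changed 4368 to 5259. With no low-count filter 3 members changed, all lower, and with FPKM 3 were lower, as GAS5 and SNHG7, or SNHG7 and SNHG12, lost their calls. GAS5 also lost its call at the stricter threshold of 0.01. Over all genes, 1390 were higher with total counts alone and 1727 at 0.01. Limma on log2(FPKM + 0.1) called 1876 genes, 591 higher and 1285 lower, and with a pseudocount of 1 it called 1892, 603 higher and 1289 lower. The cause of these shifts was not tested. Same-numbered libraries did not deviate together (correlation -0.0497), and a fit with the replicate number as a block called 5429 genes and 6 members, 5 of them lower. Low counts limit the snoRNA rows other than SNORA73B.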
